A study of Drosophila melanogaster with 2 samples.

Results

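Regions listed in chromatin immunoprecipitation of a GFP-tagged Hr38 were described at 10 genes of the Notch and Wnt pathways, out of 13968 protein-coding genes on the chromosome arms. The genes were chosen by name. The 6 of the Notch pathway were Dl, Ser, N, fng, neur and Su(H), and the 4 of the Wnt pathway were fz, fz2, arr and nkd. A listed region was assigned to a gene when its summit lay in the gene span or within 10 kb of it, in Ensembl gene models of the dm6 genome. The data were chromatin immunoprecipitation with sequencing on whole Drosophila melanogaster white prepupae, males and females pooled, at an age the labels give as 48 h without a starting point. The animals came from a transgenic line with GFP joined to the C terminus of Hr38, the antibody was against GFP (the antibody field of the labels names Hr38), and chromatin was sheared by sonication. There was 1 group of 2 biological replicates, so no condition was compared with another, and the control experiment that the labels name was not analysed here. The labels give whole animals, so no region can be placed in a tissue.

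The deposited lists held 768 peaks from a thresholding step for reproducibility, 19279 regions of the replicates pooled, 30000 regions of replicate 1 and 29031 regions of replicate 2 on the arms. A thresholded peak need not overlap a region in both replicate lists (an example is that counted for mib1, below). The pooled and replicate lists include background regions by design. Each region carries the authors' own score, on a scale that is not stated, and a rank here is a region's place by score within 1 list, with rank 1 the highest. All 768 thresholded peaks were the 768 highest of the pooled list, with scores of 78.0 or more. Pooled scores began at 28.2 and had a median of 34.8, so a score in the thirties is common in that list. The lists give no read counts, and sequencing depth is therefore unknown.

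In the Notch pathway a membrane ligand on one cell, Delta (Dl) or Serrate (Ser), binds the receptor Notch (N) on its neighbour, and the cleaved intracellular part of the receptor then acts with the DNA-binding protein Su(H) on target genes. In the canonical Wnt pathway a secreted Wnt protein such as Wingless binds a Frizzled receptor (fz, fz2) together with the co-receptor Arrow (arr), which stabilises beta-catenin and switches on genes with the factor TCF. Both pathways pattern the imaginal discs, the larval tissues from which the adult body is built in the pupa. Hr38 is the nuclear receptor of the fly that belongs to the Nr4a family, whose known binding word is the NBRE.

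Within 10 kb of the 10 genes there were 4 thresholded peaks, 1 each at neur, fz, arr and Ser. The peak at neur was the highest, with a score of 212 and rank 61 of the pooled list, and that at fz followed with 147 and rank 162. Those of arr and Ser were nearer to the threshold, at 87.0 (rank 589) and 81.2 (rank 693). N, Dl, fng, Su(H), fz2 and nkd had none, and their highest pooled regions scored between 50.0 (N) and 68.3 (fng). A score of 68.3 is the nearest below the threshold among the 10 genes, and the 81.2 of Ser is the nearest above it. The sequences shown are 300 bases around the summits at neur, fz and Ser, 3 of the 4 thresholded peaks, and around the highest pooled region of N, which holds a Su(H) word. They are from the release 6 assembly as given by RefSeq, on the plus strand. Capitals mark any of the motif words searched (given with the motif counts) and the word CAGTG or its reverse complement CACTG, which was picked out after these sequences had been seen. The windows at the arr peak and at the highest regions of Su(H) and nkd, not shown, held none of these words.
neur, chr3R:9031869-9032168: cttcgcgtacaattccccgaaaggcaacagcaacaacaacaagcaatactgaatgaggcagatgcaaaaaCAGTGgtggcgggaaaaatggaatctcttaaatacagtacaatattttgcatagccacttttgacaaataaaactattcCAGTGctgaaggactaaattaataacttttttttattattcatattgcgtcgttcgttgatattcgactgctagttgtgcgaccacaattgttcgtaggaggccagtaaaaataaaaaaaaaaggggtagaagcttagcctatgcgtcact
fz, chr3L:14338914-14339213: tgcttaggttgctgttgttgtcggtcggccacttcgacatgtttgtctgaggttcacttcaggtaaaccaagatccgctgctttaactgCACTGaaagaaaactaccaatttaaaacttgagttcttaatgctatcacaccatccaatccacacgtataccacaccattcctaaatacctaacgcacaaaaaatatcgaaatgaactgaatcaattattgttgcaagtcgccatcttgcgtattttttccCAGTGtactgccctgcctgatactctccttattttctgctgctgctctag
Ser, chr3R:27167339-27167638: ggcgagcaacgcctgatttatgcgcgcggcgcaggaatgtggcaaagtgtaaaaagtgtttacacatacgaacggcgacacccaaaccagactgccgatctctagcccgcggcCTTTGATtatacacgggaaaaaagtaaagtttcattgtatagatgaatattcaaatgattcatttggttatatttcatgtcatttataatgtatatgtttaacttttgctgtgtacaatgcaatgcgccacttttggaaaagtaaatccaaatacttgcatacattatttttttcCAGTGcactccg
N, chrX:3162313-3162612: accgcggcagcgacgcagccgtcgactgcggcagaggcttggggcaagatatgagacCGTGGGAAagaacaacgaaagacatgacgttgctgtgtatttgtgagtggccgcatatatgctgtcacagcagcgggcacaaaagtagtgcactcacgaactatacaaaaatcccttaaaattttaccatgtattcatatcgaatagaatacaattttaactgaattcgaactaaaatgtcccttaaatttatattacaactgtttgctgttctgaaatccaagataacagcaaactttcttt
None of these 4 windows overlaps an annotated exon. In the window of neur a CAGTG begins at the summit itself and another 79 bp before it. The window of fz has CACTG 60 bp before the summit and CAGTG 101 bp after it. That of Ser has the TCF word CTTTGAT 36 bp before the summit and CAGTG 139 bp after it. In the window of N the Su(H) word CGTGGGAA begins 92 bp before the summit. These are matches of letters and no binding by the named factors was measured.

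**Figure D1:**
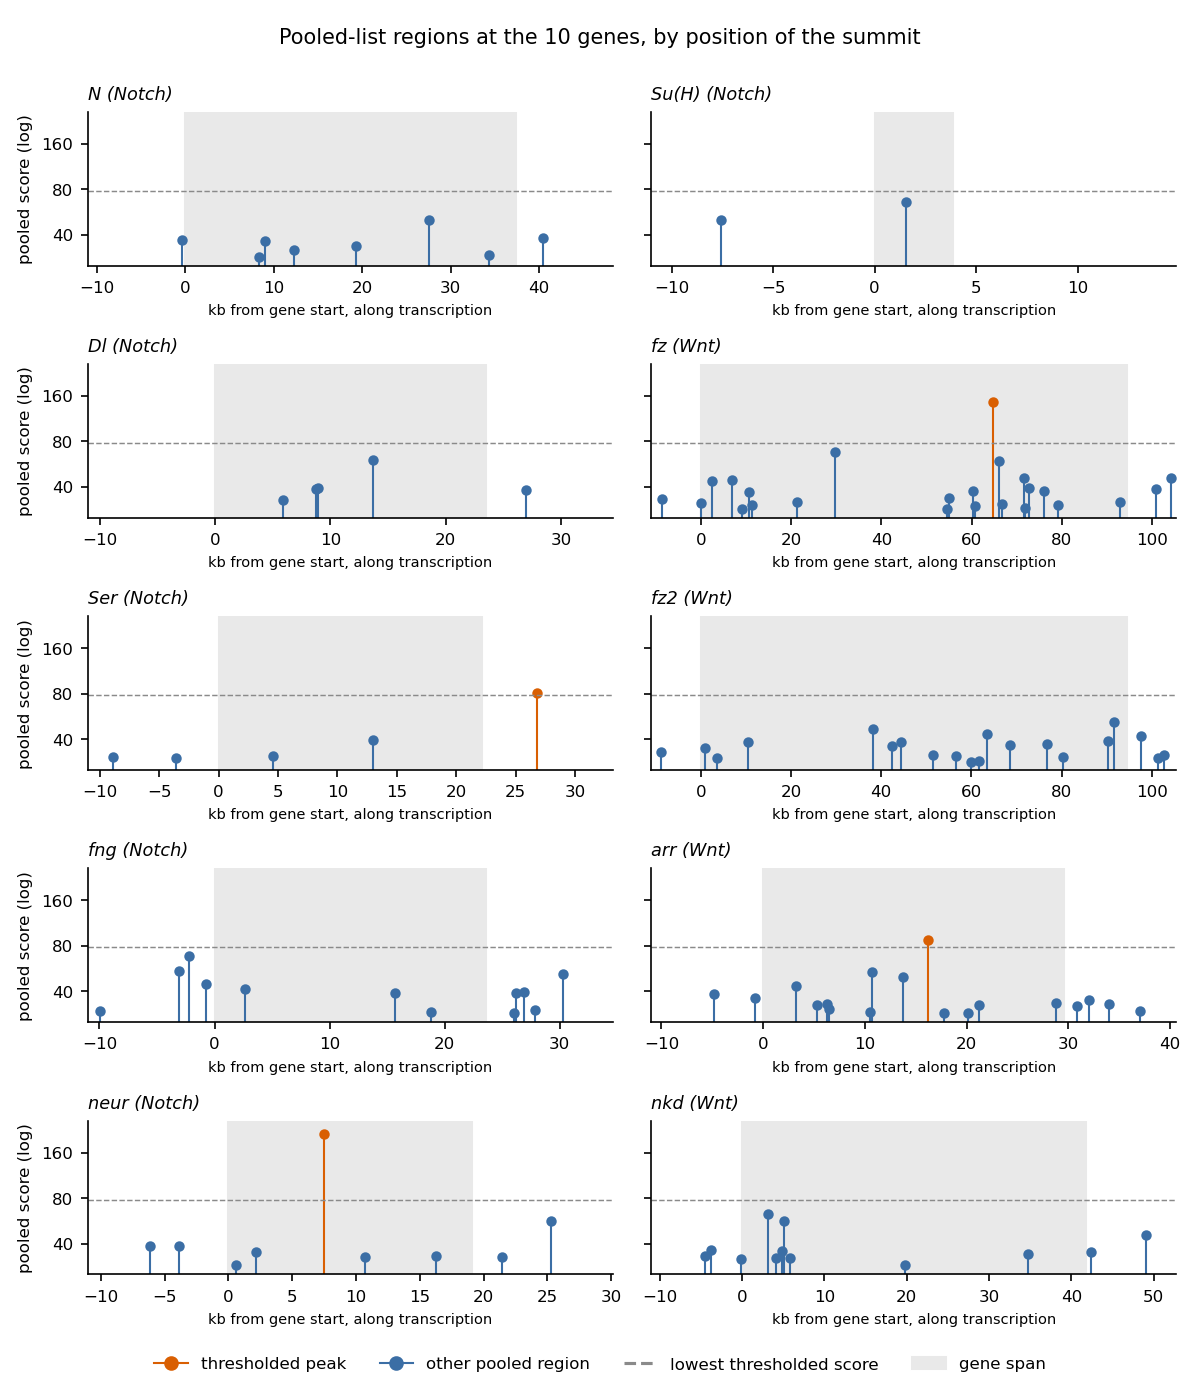
Score in the pooled list (log axis) of every region assigned to each gene, against the distance of its summit from the gene start in kb along the direction of transcription, with the gene span shaded and the lowest thresholded score, 78.0, dashed. Orange stems are the 4 thresholded peaks, at neur (212), fz (147), arr (87.0) and Ser (81.2, past the end of the gene), and blue stems are the other 111 pooled regions.

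Delta is the ligand used in most Notch signalling of the fly, and its gene lies at 19302731 to 19326217 on 3R, minus strand (FBgn0000463, listed as Delta in the annotation). It had 5 pooled regions, 12 regions in replicate 1 and 13 in replicate 2. The highest, with a pooled score of 60.0 and rank 1381, was centred at 19312539 in intron 3, 13678 bp from the start site of Delta, which was the nearest of any gene. It scored 26.7 (rank 5287) in replicate 1 and 32.8 (rank 1315) in replicate 2. The other 4 pooled regions scored 32.7 to 39.4, of which 3 were in introns and 1 lay 3451 bp past the end of the gene, nearer to CG44174. No pooled region of Dl lay at its promoter, taken as 500 bp to either side of a start site.

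Serrate, the other Notch ligand, is known for its part in forming the wing margin, and its gene lies at 27172090 to 27194267 on 3R, minus strand. It had 5 pooled regions, with 7 in replicate 1 and 9 in replicate 2. Its thresholded peak, at 27167298 to 27167677, was intergenic, with the summit at 27167488, 4602 bp past the 3′ end of Ser and 26507 bp from its nearest start site. The nearest start site of any gene, at 1772 bp, was that of a neighbouring gene, so the peak is nearer to another gene than to the start of Ser. The score was 36.8 (rank 1308) in replicate 1 and 41.6 (rank 670) in replicate 2, and the replicate summits were 7 bp apart. The other 4 regions scored 30.0 to 39.5. They comprised 2 in introns of Ser and 2 in the intergenic sequence upstream of it, at 3630 and 8878 bp.

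Notch itself, the receptor, lies at 3134870 to 3172221 on X, plus strand. It had 8 pooled regions, and 10 in replicate 1 and 14 in replicate 2. Its highest, at a score of 50.0 and rank 2447, was the lowest such value of the 10 genes. The summit at 3162462 was in intron 5, 27592 bp from the start of N, and the nearest start site was that of CG18508 at 10678 bp. Replicate 1 gave that region 24.0 (rank 8368) and replicate 2 gave it 29.4 (rank 1947). A weak region lay at the promoter of N, with its summit 423 bp upstream of the start site and inside kirre, a gene for an immunoglobulin-family protein of myoblast fusion. It scored 37.2 (rank 7612) in the pooled list and 19.4 (rank 8521) in replicate 2, and no region of replicate 1 overlapped it. Of the 8 regions, 5 were in introns of N and 1 in its coding sequence.

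The gene fng encodes Fringe, a glycosyltransferase of the Golgi that adds sugar to Notch and changes which ligand it answers to. It lies at 20925891 to 20949512 on 3L, minus strand, and had 12 pooled regions, 12 in replicate 1 and 16 in replicate 2. The pooled regions of fng were mostly outside the gene, with 4 upstream, 5 downstream and 3 in its introns. The highest 2 lay upstream. The first, at 20951774 and 2262 bp upstream, scored 68.3 (rank 1029) in the pooled list, 33.4 (rank 1896) in replicate 1 and 32.7 (rank 1336) in replicate 2, and its nearest start site was that of lncRNA:CR45243 at 991 bp. The second, 3048 bp upstream, scored 55.0 in the pooled list and ranked 12805 in replicate 1 and 1150 in replicate 2. Another, 6636 bp past the 3′ end, scored 52.2 and ranked 2183 in replicate 1 and 23737 in replicate 2. Both replicates listed 9 of the 12.

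Neuralized, the product of neur, is a ubiquitin ligase that drives endocytosis of Delta in the cell that sends the signal, best known in sensory organ precursors. The gene lies at 9020348 to 9039471 on 3R, minus strand, and had 9 pooled regions, 10 in replicate 1 and 14 in replicate 2. Its thresholded peak, at 9031951 to 9032058, was narrow, 108 bp against the median of 380 bp for the thresholded list. The summit at 9032018 was in intron 1, in an intron of all 5 transcripts, 7453 bp from the gene start and 1713 bp from the nearest of the 2 start sites of neur, which was also the nearest of any gene. The peak scored 115 in replicate 1 and 97.8 in replicate 2 and ranked 67 in both, with the summits 48 bp apart. Its −log10 q value of 2.91 was the highest in the list, shared by 404 peaks in all. Among all protein-coding genes, 97.8% had a lower highest score within 10 kb than neur.

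No other region at neur came near this peak. The next, at the promoter of Kcmf1, 6158 bp past the end of neur and 32 bp from the start site of Kcmf1, scored 56.8 in the pooled list. It scored 43.9 (rank 715) in replicate 1 and had no overlapping region in replicate 2. The other 7 scored 29.0 to 38.8. Among them the summits at 6124 and 3874 bp upstream were in coding exons within the neighbouring genes Rel and Nmdmc, and matched no region of either replicate.

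Su(H) encodes the DNA-binding protein through which Notch acts on its targets. It is the shortest of the 10 genes, 3847 bp at 15039488 to 15043334 on 2L, plus strand, and had 2 pooled regions, 6 in replicate 1 and 11 in replicate 2. The higher, at 15041056 in intron 1 and 1568 bp from the start site, scored 66.2 (rank 1100) in the pooled list. The replicates differed there, with a score of 47.6 (rank 596) in replicate 1 and 17.9 (rank 11068) in replicate 2. In replicate 1 it was thus among the 768 highest regions. The other, 7552 bp upstream, scored 50.1 and was 186 bp from the start site of CG31832, inside GABA-B-R1, a receptor subunit for the transmitter GABA.

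Frizzled, the product of fz, is a Wnt receptor and also a core protein of planar cell polarity. Its gene is long, 94297 bp at 14274343 to 14368639 on 3L, plus strand, and had 24 pooled regions, 32 in replicate 1 and 40 in replicate 2. The thresholded peak, at 14338873 to 14339252 with its summit at 14339063, was deep in intron 4, an intron of 49410 bp, and 64720 bp from the start site of fz. The nearest start site was that of CG13482, a gene nested in fz, at 9717 bp. The peak scored 83.3 (rank 153) in replicate 1 and 62.2 (rank 228) in replicate 2, with summits 48 bp apart. It had the highest −log10 q value as well, 2.91.

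Of the 24 pooled regions of fz, 18 were intronic. The second highest, in intron 1 at 29707 bp from the start site, scored 67.8 in the pooled list and ranked 837 in replicate 1 and 6336 in replicate 2. Beyond the thresholded summit, at 14340429 in the same intron, a region scored 59.5, ranked 1798 in replicate 1 and was not listed in replicate 2. A region centred 41 bp from the start site of fz scored 31.4 (rank 13746) in the pooled list and ranked 1195 in replicate 2, with none in replicate 1. One more lay 39 bp from the start site of CG13482, at 33.9 in the pooled list.

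Frizzled 2, from fz2, is a second receptor with high affinity for Wingless. Its gene spans 94399 bp at 19140975 to 19235373 on 3L, minus strand, close in length to fz, with 20 pooled regions, 30 in replicate 1 and 21 in replicate 2. It had no thresholded peak, and its highest pooled region scored 52.3 (rank 2108). That region, centred at 19143852, lay in the 3′ UTR of fz2 and 2908 bp from its nearest start site. It scored 32.4 (rank 2212) in replicate 1 and 13.1 (rank 26276) in replicate 2, near the lowest score of that list, 12.5. The next, in an intron at 38277 bp from the gene start, scored 46.9 and ranked 5229 in replicate 1 and 2763 in replicate 2. Introns held 17 of the 20 summits, 3 of them in introns of the neighbouring CG14082.

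Arrow, from arr, is the fly LRP5/6 protein, the co-receptor of Frizzled for Wnt. The gene lies at 13453640 to 13483229 on 2R, minus strand, and had 18 pooled regions, 10 in replicate 1 and 22 in replicate 2. Its thresholded peak, at 13466885 to 13467264 with its summit at 13467075, was in intron 2, an intron of 22250 bp, and 16154 bp from the start site of arr. The nearest start site was that of the nested gene CG43192, at 10267 bp. The replicates differed here, with a score of 58.1 (rank 376) in replicate 1 and 27.3 (rank 2499) in replicate 2, and the −log10 q value was 2.37. Further regions in the same intron scored 54.0 in the pooled list (rank 899 in replicate 1, not listed in replicate 2) and 49.7 (rank 6646 in replicate 1 and 4642 in replicate 2). Per 100 kb, arr had 36.3 pooled regions, the highest density of the 10 genes, and 5 of its 18 summits were in coding exons, 4 of them of neighbouring genes.

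Naked cuticle, from nkd, is an inhibitor of Wnt signalling that binds Dishevelled and whose gene Wingless itself turns on. The gene lies at 19003741 to 19045449 on 3L, minus strand, with an intron 1 of 33245 bp, and had 12 pooled regions, 15 in replicate 1 and 24 in replicate 2. The highest, at 19042244 in intron 1 and 3205 bp from the start site, scored 62.5 (rank 1258) in the pooled list. It scored 31.5 (rank 2500) in replicate 1 and 20.6 (rank 6858) in replicate 2, with summits 281 bp apart. The second, also in intron 1 at 5092 bp, scored 56.0 in the pooled list and ranked 16138 in replicate 1 and 1569 in replicate 2. At the promoter of nkd, 137 bp upstream, a region scored 31.6 (rank 13568) and ranked 7980 in replicate 2, with none in replicate 1.

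**Figure D2:**
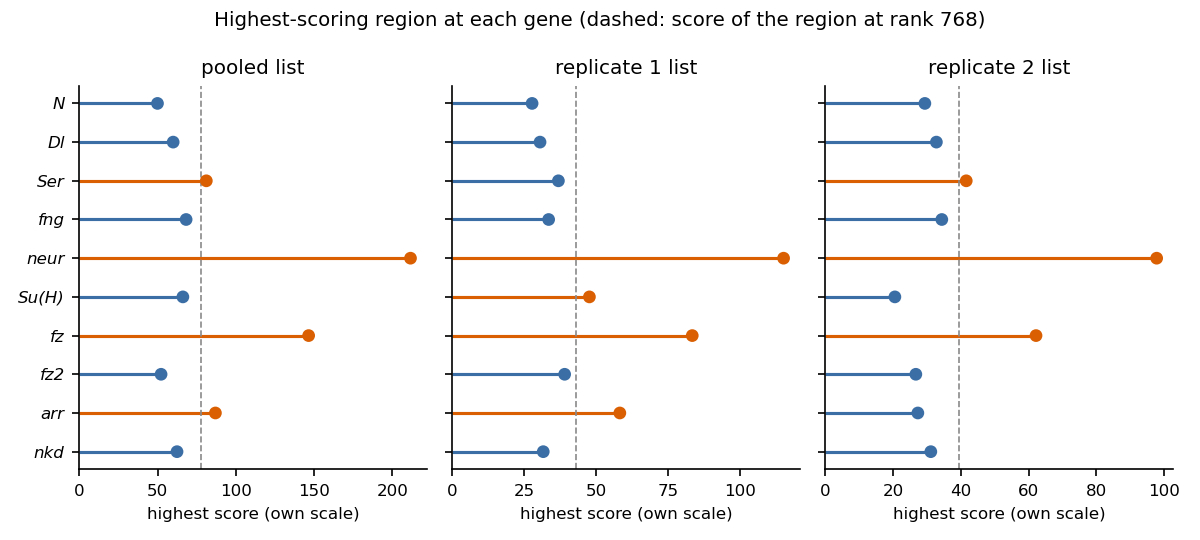
Highest score within 10 kb of each gene in the pooled list and in each replicate list, each on its own score axis, with the score of the region at rank 768 of that list dashed and the genes at or above it in orange. The values of neur and fz lay above the line in all 3 lists, those of Ser in the pooled and replicate 2 lists, that of arr in the pooled and replicate 1 lists, and that of Su(H) in replicate 1 alone.

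A thresholded peak within 10 kb was found at 4 of the 10 genes, and at 2882 of all 13968 protein-coding genes (20.6%). The 10 genes are long, with a median span of 26606 bp against 2164.5 bp over all genes, and longer windows hold more regions. Among genes of 10 kb or more, 4 of the 9 members had one, against 533 of 1985 genes (26.9%). Inside the gene span there was a peak at 3 of the 10 genes (neur, fz and arr), against 3.31% of all genes. That count depends directly on span, and among genes of 10 kb or more it was 3 of the 9 members against 14.2% of all. With 10 genes these counts describe the members, and no test was made of their difference from the rest. Of the 115 pooled regions assigned to the 10 genes, 4 were thresholded (3.48%), against 3.98% of all pooled regions, so the regions at these genes passed the threshold about as often as any.

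The highest pooled score within 10 kb had a median of 67.2 over the 10 genes, against 48.4 over all protein-coding genes. Over genes of 10 kb or more it was 68.3 for the 9 members and 54.3 for all. Ordered by it the genes ran neur, fz, arr, Ser, fng, Su(H), nkd, Dl, fz2 and N. The places after neur and fz depend on the list, since Su(H) came next after neur, fz and arr in replicate 1 and last of the 10 in replicate 2. Pooled regions within rank 2000 numbered 14, at 8 of the genes (12.2% of the members' regions against 10.4% of all). Within rank 5000 there were 30, at all 10 (26.1% of the members' regions against 25.9% of all). These numbers of genes were not set beside other genes, and longer windows hold more regions.

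Density of listed regions differed among the genes. Per 100 kb of window the pooled list held 8.39 regions at Su(H), 11.5 at Dl, 11.9 at Ser, 13.9 at N, 17.5 at fz2, 19.4 at nkd, 21.0 at fz, 23.0 at neur, 27.5 at fng and 36.3 at arr. The median of 18.5 was close to that of all protein-coding genes, 17.4. Of the genes with a thresholded peak, arr, neur and fz were among the denser, with 36.3, 23.0 and 21.0, and Ser, with 11.9, was not. The window of fng, with 27.5, had no thresholded peak. The order changed with the list. At Su(H), lowest in the pooled list, replicate 2 held 46.1 regions per 100 kb, the highest of the 10, and replicate 1 held 25.2. At arr replicate 1 held 20.2 and replicate 2 held 44.4. N is the 1 gene of the 10 on X, where the pooled list is sparser, with 13.9 regions per 100 kb at N against 9.20 on the whole of X.

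**Figure D3:**
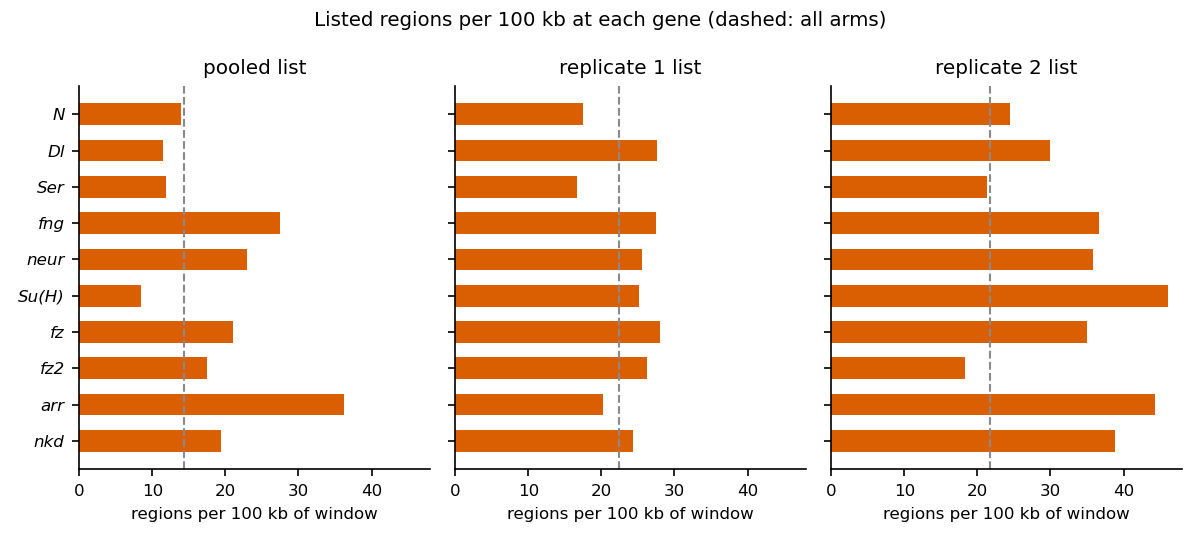
Listed regions per 100 kb of window (gene span and 10 kb to either side) at each gene in the pooled, replicate 1 and replicate 2 lists, with the density over all arms dashed. The pooled density ran from 8.39 at Su(H) to 36.3 at arr around the 14.4 of all arms, and the order of the genes differed between the replicate lists.

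The regions lay mostly in introns. Of the 115 pooled summits, 77 were inside the gene spans, 17 upstream and 21 downstream. Introns, of the members or of neighbouring genes, held 70 (60.9%, 95% Wilson interval 51.7 to 69.3%), against 34.6% of all pooled regions. The sequence of the windows had the same composition, since introns made up 60.8% of it, against 39.9% of the arms. Promoters of protein-coding genes held 12 (10.4%, 6.07 to 17.4%), against 17.8% of all pooled regions, and made up 8.60% of the windows against 11.5% of the arms. Coding exons held 14 summits and intergenic sequence 16, and the remainder were 2 in exons of noncoding genes and 1 in a 3′ UTR. These intervals cover the counting of regions only.

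Some of the regions were at the start of a pathway gene. A start site of the assigned gene was within 500 bp of 3 of the 115 summits, those at N, fz and nkd, and their scores of 37.2, 31.4 and 31.6 were low in the pooled list. None of the 3 had an overlapping region in replicate 1. In the lists of single replicates 0 of 144 summits in replicate 1 and 7 of 184 in replicate 2 were that close. Those of replicate 2 included summits at Dl, neur and Su(H), with scores of 15.0, 17.8 and 20.5. The share of window sequence within 500 bp of the start sites of the assigned genes was not computed. These counts are therefore not called few or many. The nearest start site of any gene belonged to the member for 39 summits and to another gene for 76, and at 24 summits another gene held the position. These counts were not made for the windows of other genes. Genes lie nested in 6 of the 10, among them CG10589 in fng, CG13482 in fz and CG43192 in arr. Of the 4 thresholded peaks, that of neur alone was nearest to a start site of the pathway gene itself.

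**Figure D4:**
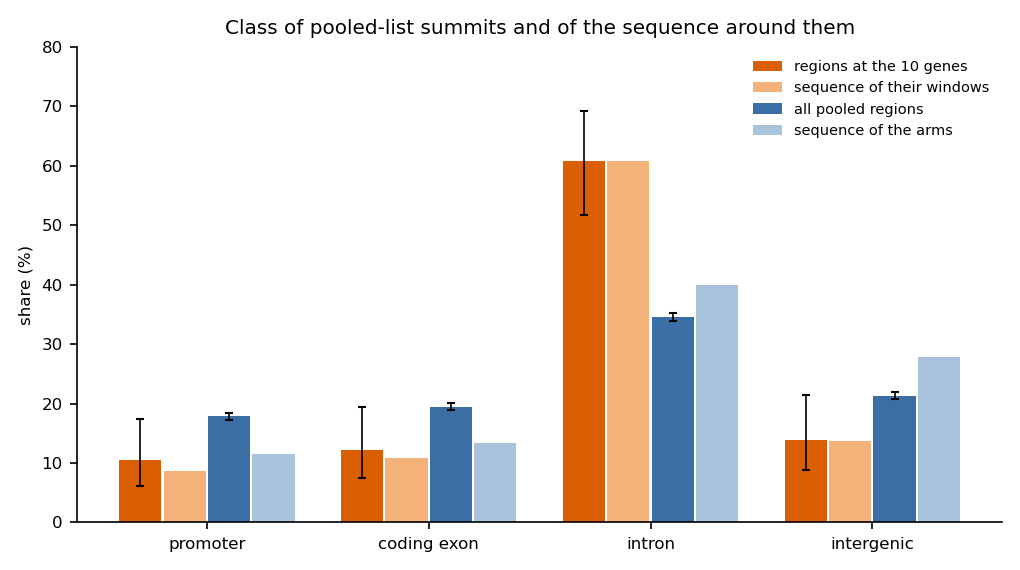
Share in percent of pooled summits in 4 classes, for the 115 regions at the 10 genes (dark orange) and all 19279 pooled regions (dark blue), each beside the share of the sequence they were drawn from (pale: the windows of the 10 genes, and all arms), with 95% Wilson intervals on the shares of regions. Introns held 60.9% of the regions at the 10 genes and made up 60.8% of the windows.

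Of the 115 pooled regions, 53 (46.1%, interval 37.3 to 55.2%) overlapped a region in both replicate lists, against 44.1% of all pooled regions. A further 27 (23.5%, interval 16.7 to 32.0%) were in replicate 1 alone, against 31.9% of all pooled regions. In replicate 2 alone there were 31 (interval 19.7 to 35.7%), against 21.0%, and 4 were in neither (3.48%), against 3.06%. Replicate 2 alone thus held more of the members' regions than replicate 1 alone, the reverse of the whole list. The intervals of both shares held those of the whole list. The pooled list was made from both replicates, so this overlap is no independent check of it. Where both replicates listed a region, the summits of the highest-scoring overlapping region of each were a median of 93 bp apart. These need not be the closest summits. For the pooled region of Dl at 19317264 the distance was 231 bp, from 19317272 in replicate 1 to 19317503 in replicate 2. Replicate 2 also listed a summit at 19317274. In 7 pairs of close pooled regions, at Dl, fng, fz, arr and nkd, both members of the pair were matched to the same replicate region. The replicate values given for these 14 regions are therefore not separate observations. The sharing follows from taking the highest-scoring overlap, and a replicate list can hold a region for each member. At Dl, for example, replicate 1 listed summits at 19317272 and at 19317503. Of the replicate regions at the 10 genes, 64 of 144 in replicate 1 and 92 of 184 in replicate 2 had no counterpart in the pooled list. The pooled list is the shorter, with 19279 regions against 30000 and 29031. The same shares over the whole replicate lists were not computed.

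The ranks of the highest region of each gene showed how far the replicates went together. At neur they were equal, and at fz, Ser and fng they were within a factor of 2 of each other. In the highest regions of 5 genes (fz, Su(H), arr, nkd and fz2) the rank was higher in replicate 1, and in 4 (N, Dl, Ser and fng) it was higher in replicate 2. The widest gaps were at Su(H), with ranks 596 and 11068, and at fz2, with 2212 and 26276. Over all 53 shared regions, by the highest-scoring overlapping region of each replicate, 24 ranked higher in replicate 1 and 28 in replicate 2.

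**Figure D5:**
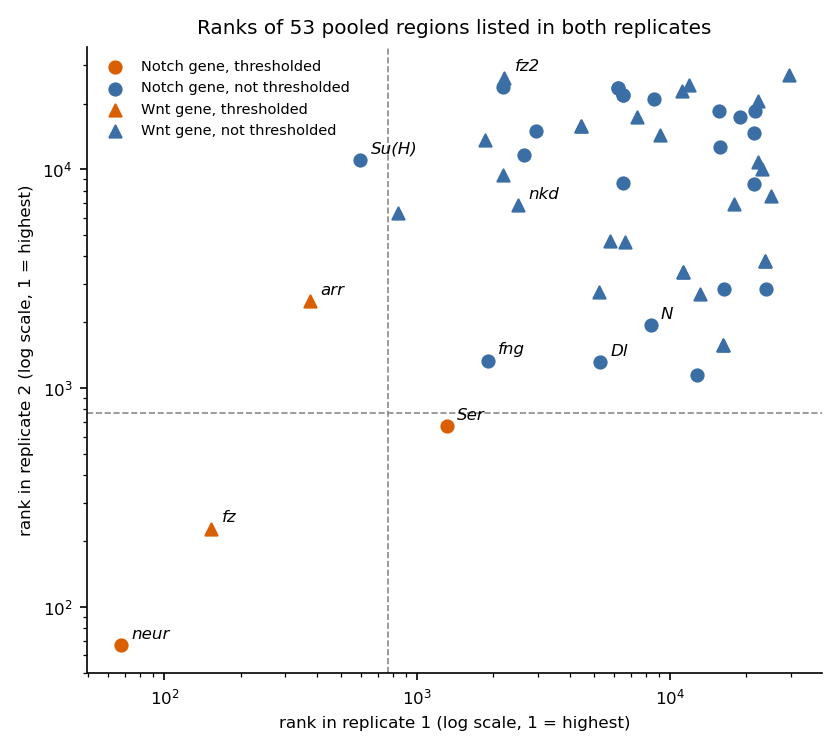
Rank in replicate 2 against rank in replicate 1 (both axes log, 1 is the highest score) of the 53 pooled regions found in both lists, with circles for Notch genes, triangles for Wnt genes, orange for thresholded peaks, the highest region of each gene named and rank 768 dashed. The peaks of neur (67 and 67) and fz (153 and 228) are within rank 768 of both lists, while arr and Su(H) are so in replicate 1 alone and Ser in replicate 2 alone.

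Motif words were searched on both strands in the 300 bp around each summit. The NBRE, AAAGGTCA, was in 4 of the members' 115 windows (3.48%, interval 1.36 to 8.60%), against 0.391% of the 768 thresholded windows and 0.970% of all pooled windows. These 4 were weak regions. They lay 8878 bp upstream of Ser (score 30.5), 6440 bp past the end of fz (38.8), 8657 bp upstream of fz (33.4) and 722 bp past the end of nkd, at the promoter of SmydA-2 (35.3). None was at a thresholded peak or at the highest region of any of the 10 genes. The nuclear receptor core AGGTCA, which is part of the NBRE, was in 13 windows (11.3%, 6.73 to 18.4%), against 3.13% of thresholded and 7.42% of pooled windows, and likewise in 0 of the 10 highest.

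For the words of the pathways' own factors the intervals of the members' shares held the shares of the whole lists. The Su(H) words CGTGGGAA, CGTGAGAA, TGTGGGAA and TGTGAGAA were in 5 windows (4.35%, 1.87 to 9.78%), against 2.86% of thresholded and 3.05% of pooled windows. Besides the highest region of N these were the region past the end of Dl, the one at the Kcmf1 promoter by neur, and at fz the region at 14340429, with 2 copies, and one 6440 bp past its end. The TCF word CTTTGAT was in 6 (5.22%, 2.41 to 10.9%), against 4.56% of thresholded and 4.66% of pooled windows, 3 of them at nkd, 2 at fz2 and 1 at the Ser peak. GAGAGAG, the GAGA word, was in 6 (5.22%), against 11.7% of thresholded and 5.41% of pooled windows. The AP-1 words TGACTCA and TGAGTCA were in 3 (2.61%), against 3.91% of thresholded and 2.62% of pooled windows. The promoter words DRE (TATCGATA) and M1BP motif 1 (GGTCACAC) were in 0 of 115, with upper interval bounds of 3.23%, against 3.39% and 2.60% of thresholded and 1.16% and 1.03% of pooled windows.

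The word CAGTG was in 3 of the 4 thresholded windows of the members, those of neur, fz and Ser, and in 5 of the 10 highest. In all 115 windows it was in 53 (46.1%, 37.3 to 55.2%), against 67.3% of thresholded and 50.3% of pooled windows. A word of 5 bases is frequent in any sequence, and this one was chosen after the members' windows were seen, so its count at the members supports nothing. The windows of the members' regions had a mean GC content of 44.6%, against 40.2% in thresholded and 46.2% in pooled windows.

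Further genes of both pathways, from lists chosen by name, were counted the same way. Of 30 further Notch pathway genes, 7 had a peak within 10 kb (23.3%), against 20.6% of all protein-coding genes. Of the 7 that span 10 kb or more, 1 had a peak, against 26.9% of all genes of that length. The highest of these peaks, with a score of 223 and rank 54, was 159 bp from the start site of gro, which encodes the corepressor Groucho, and it was the same peak that counted for the target genes E(spl)m7-HLH and E(spl)m8-HLH nearby. It ranked 65 in replicate 1 and 83 in replicate 2. The gene mam, for the coactivator Mastermind, had a peak of 149 in an intron 7115 bp from its own start site and nearer to that of CG18371. The peak at rumi, a protein glucosyltransferase of Notch, scored 82.1 and was 123 bp upstream of its start site. Those counted for O-fut1 (122) and mib1 (83.6) were nearest to CG13018 and hzg. The peak counted for mib1 ranked 318 in replicate 2 and overlapped no region of replicate 1.

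Of 34 further Wnt pathway genes, 7 had a peak (20.6%), against the same 20.6% of all genes. Of the 16 that span 10 kb or more, 2 had a peak, against 26.9% of all genes of that length. The highest peak was at the promoter of gish, a casein kinase I, with 249 and rank 42, 169 bp from its start site. Around wg, which encodes the ligand Wingless, there was a peak of 110 in an intron, 6481 bp from the start site, with ranks of 366 in replicate 1 and 354 in replicate 2. The peak counted for dsh, the gene of the transducer Dishevelled, scored 208 and lay 4360 bp upstream of it, nearer to CG1737. A peak of 105 lay inside Wnt10, a Wnt ligand gene, nearest to ninaC. The other 3 were nearer to neighbouring genes than to the pathway gene, with pygo (138) nearest to CG1635, dgo (115) to wde and Tnks (112) to jigr1. Of the 23 further Notch and 27 further Wnt genes without a thresholded peak, all had at least 1 pooled region within 10 kb. So had all but 605 of the 13968 protein-coding genes.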

How the data were processed

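Peak lists from 2 biological replicates of chromatin immunoprecipitation with an anti-GFP antibody were analysed on dm6. Per the deposited text lists, the alignments of a replicate and a control file gave its list, the alignments of both gave the pooled list, and an irreproducible discovery rate (IDR) step on these gave the thresholded list. The alignment program, the program that called regions and the IDR cutoff were not given in the sources used here. In the deposited narrowPeak lists each region has a score of unstated scale, which is the signal column, a −log10 q value, and the authors' offset in bp between region start and summit. Scores were used within 1 list only, with ranks among the regions on the arms. Without read counts the depth per sample is unknown, and no interval rests on depth. The 5 mitochondrial regions of replicate 2 were left out, as were the lists on dm3, for which no gene models were used.

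Gene models came from Ensembl release 115 and sequence from RefSeq's copy of the release 6 assembly. Of the 10 genes 9 matched by symbol, and Dl by its identifier. All 30 further Notch and 34 further Wnt genes matched, outdated symbols through the synonyms of RefSeq. Each summit was classed, by first match, as promoter (a protein-coding start site within 500 bp), 5′ or 3′ UTR, coding exon, another exon, intron or intergenic. Intron numbers are those of the canonical transcript. Composition of sequence was read every 25 bp in the windows and every 500 bp on the arms. A shared base pair counted as overlap between lists. Replicate scores, ranks and summits given for a pooled region are those of the highest-scoring replicate region that overlapped it. Intervals are 95% Wilson intervals, which treat regions as independent, and neighbouring regions are not. With 1 group no test was made, and all comparisons with the whole lists are descriptions. The steps were tested on simulated data. The text names all 10 genes, at each thresholded peak and highest region the genes that hold the summit or have the nearest start site, and further pathway genes with a thresholded peak. The gene nearest to the Ser peak is not named, as it is not reported here. Other genes at weaker regions (such as Kcmf1, Rel, Nmdmc, kirre and SmydA-2) were named after their values were seen. The members, gene lists and motifs were chosen with earlier results of these data known. The tools were Python 3.11.15, numpy 2.4.6, pandas 2.3.3, scipy 1.17.1 and matplotlib 3.10.9.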

Additional observations from a re-analysis of the deposited data

How the results depend on the processing

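No paired analysis was possible because there is 1 group. The count of 4 genes with a thresholded peak was 3 inside the gene spans (Ser lost), against 3.31% of all genes. It was 4 at 5 kb, at 20 kb (with 6 peaks) and with any base of the region in the window. For these settings the share of all genes was not computed, and it can change with the window, so the counts have no background. Among thresholded peaks above the median score the count was 2 genes with 2 peaks (neur and fz), against 12.0% of all genes. With the 768 highest regions of 1 replicate in place of the thresholded list, 3 to 4 genes had 3 to 5 peaks. Without replicate 1 these were Ser, neur and fz (19.8% of all genes), and without replicate 2 neur, Su(H), fz and arr (20.3%). The lists of single replicates held 144 to 184 regions at the genes, with a median density of 25.4 to 35.4 per 100 kb and a median highest score of 31.9 to 37.9, on scales of their own. Within the gene spans that median was 61.2 in the pooled list. Of the members' regions above the median pooled score, 63.3% were in both replicates. The same share over all pooled regions above the median was not computed, so this value has no background. The backgrounds of genes of 10 kb or more and the word CAGTG were added after seeing the data. Scores of different lists cannot be compared, depth is unknown, and whole animals mix tissues.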
